A study of Mus musculus with 12 samples.

Results

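The albumin gene family of the mouse has 4 members, Alb, Afp, Afm and Gc, and acetylation of histone H3 at lysine 9 (H3K9ac) over them was examined in adult liver. Peaks were taken when they overlapped a gene body or the 5 kb on either side of its start (GENCODE M21, mm10), or lay in the intervals between Alb, Afp and Afm. The 4 genes are 4 of 21911 protein-coding genes, and 73 of the 102889 peaks in 6 lists were theirs. H3K9ac had been measured by chromatin immunoprecipitation and sequencing in 2 livers of the inbred strain C57BL/6J (B6), in 2 of the inbred strain MSM/Ms (MSM) and in 1 liver from each reciprocal cross between them. F1 BM had its maternal genome from B6, and F1 MB had its maternal genome from MSM. MSM/Ms derives from Japanese wild mice. All animals were adult and no treatment is named for them, and the study describes the libraries of each parental strain as 2 individuals. The study asked whether the borders of acetylated regions differ between the strains and their hybrids. Each list held the peaks of 1 liver, with a fold enrichment over background for each peak. An input library of each liver was not analysed here.

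Albumin is the main protein of blood plasma and carries fatty acids, hormones and drugs. Alpha-fetoprotein, the product of Afp, takes its place in the fetus, and its gene is highly active in fetal liver and is shut down after birth. Afamin, the product of Afm, binds vitamin E and Wnt proteins, and the product of Gc is the vitamin D-binding protein. The genes arose by duplication and still lie on 1 chromosome, and hepatocytes are the main source of all of these proteins. HNF4, FOXA and C/EBP proteins are known activators of these genes, while Zhx2 and Zbtb20 encode repressors of Afp in adult liver. H3K9ac marks active promoters and enhancers, and it often spreads from the start into the body of a strongly transcribed gene.

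All 4 genes lie on chromosome 5. Gc is on the minus strand at chr5:89417522-89457898 and has 13 exons. Its start lies 1003 kb from that of Alb. Alb (chr5:90460897-90476602), Afp (chr5:90490737-90508907) and Afm (chr5:90518932-90553543) follow each other on the plus strand, and each has 15 exons. The starts of Alb and Afp lie 29.8 kb apart and those of Afp and Afm 28.2 kb apart. The next gene, 5830473C10Rik (chr5:90561107-90597871), which RefSeq also lists as an albumin superfamily member, begins 7.56 kb past the end of Afm.

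The 250 bases before the RefSeq start of each gene are shown first, because 3 of these promoters had peaks beside them and that of Afp had none. They are RefSeq sequences of GRCm38.p6, read 5′ to 3′ on the strand of the gene, at chr5:90460620-90460869 for Alb, chr5:90490464-90490713 for Afp, chr5:90518699-90518948 for Afm and chr5:89457899-89458148 for Gc. Capitals mark every match, on either strand, to the letters CCAAT (the CCAAT box) and TATAAA (the TATA box). A match to CCAAT on the other strand reads ATTGG. Motif positions are counted from the RefSeq start, which lies 27 bp before the GENCODE start for Alb and 23 bp before it for Afp, 17 bp past it for Afm and at the same base for Gc. All other distances are counted from the GENCODE start.
Alb: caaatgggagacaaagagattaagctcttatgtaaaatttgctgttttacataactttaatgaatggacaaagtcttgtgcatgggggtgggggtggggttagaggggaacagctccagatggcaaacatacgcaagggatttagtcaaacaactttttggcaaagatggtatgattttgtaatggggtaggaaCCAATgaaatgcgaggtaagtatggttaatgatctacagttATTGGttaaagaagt
Afp: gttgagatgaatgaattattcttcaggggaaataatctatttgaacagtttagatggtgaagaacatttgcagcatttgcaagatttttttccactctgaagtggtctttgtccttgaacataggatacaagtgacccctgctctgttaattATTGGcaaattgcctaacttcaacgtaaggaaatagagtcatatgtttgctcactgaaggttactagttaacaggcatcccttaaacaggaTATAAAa
Afm: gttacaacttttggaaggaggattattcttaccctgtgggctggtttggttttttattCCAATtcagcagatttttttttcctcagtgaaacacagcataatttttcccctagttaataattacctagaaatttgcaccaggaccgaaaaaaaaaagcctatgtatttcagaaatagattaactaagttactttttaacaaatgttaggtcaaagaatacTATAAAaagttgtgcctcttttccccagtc
Gc: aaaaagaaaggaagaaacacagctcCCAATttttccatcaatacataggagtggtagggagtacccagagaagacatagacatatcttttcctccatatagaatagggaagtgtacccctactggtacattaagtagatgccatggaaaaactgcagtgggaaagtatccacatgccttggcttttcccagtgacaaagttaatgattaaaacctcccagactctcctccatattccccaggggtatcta
CCAAT was found in 4 of 4 members and in 33.9% of 32841 promoters of the same length. TATAAA was found in 2 of 4 members, Afp and Afm, and in 12.4% of the promoters. In Alb CCAAT stands at -56 and, on the other strand, at -15. In Afp it stands on the other strand at -98, and TATAAA stands at -7. In Afm CCAAT stands at -192 and TATAAA at -30. In Gc CCAAT stands at -225. The motifs do not overlap each other in these promoters. The promoter of Afp thus held the same 2 strings of letters as that of Afm.

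The 4 genes fell into an order by covered length that fold enrichment gave only in part. The covered length, the number of bp under peaks in the gene window, was 0 for Afp in all 6 lists, while Alb, Afm and Gc had peaks in all 6. A peak in all 6 lists was found for 28.5% of protein-coding genes, and no peak in any list for 47.2%. Ranked by covered length among all protein-coding genes of a library, Gc stood at percentiles 99.1 to 99.8, Alb at 83.8 to 98.5 and Afm at 74.9 to 93.3. The order Gc, Alb, Afm, Afp held within each of the 6 libraries. Across libraries the ranges of Gc and Alb and those of Alb and Afm overlapped, with 3963 to 9555 bp for Gc, 987 to 4961 bp for Alb and 636 to 1900 bp for Afm. By highest fold enrichment Gc was first in all 6 libraries, but Afm stood above Alb in B6 replicate 2, MSM replicate 2 and F1 MB. The windows differ in length, so the same order was read within 5 kb of the starts, where the mean over 6 libraries was 4422 bp for Gc, 2310 bp for Alb, 1119 bp for Afm and 0 bp for Afp. In a piece of tissue, fewer cells with the mark and less of the mark in each cell cannot be told apart.

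**Figure D1:**
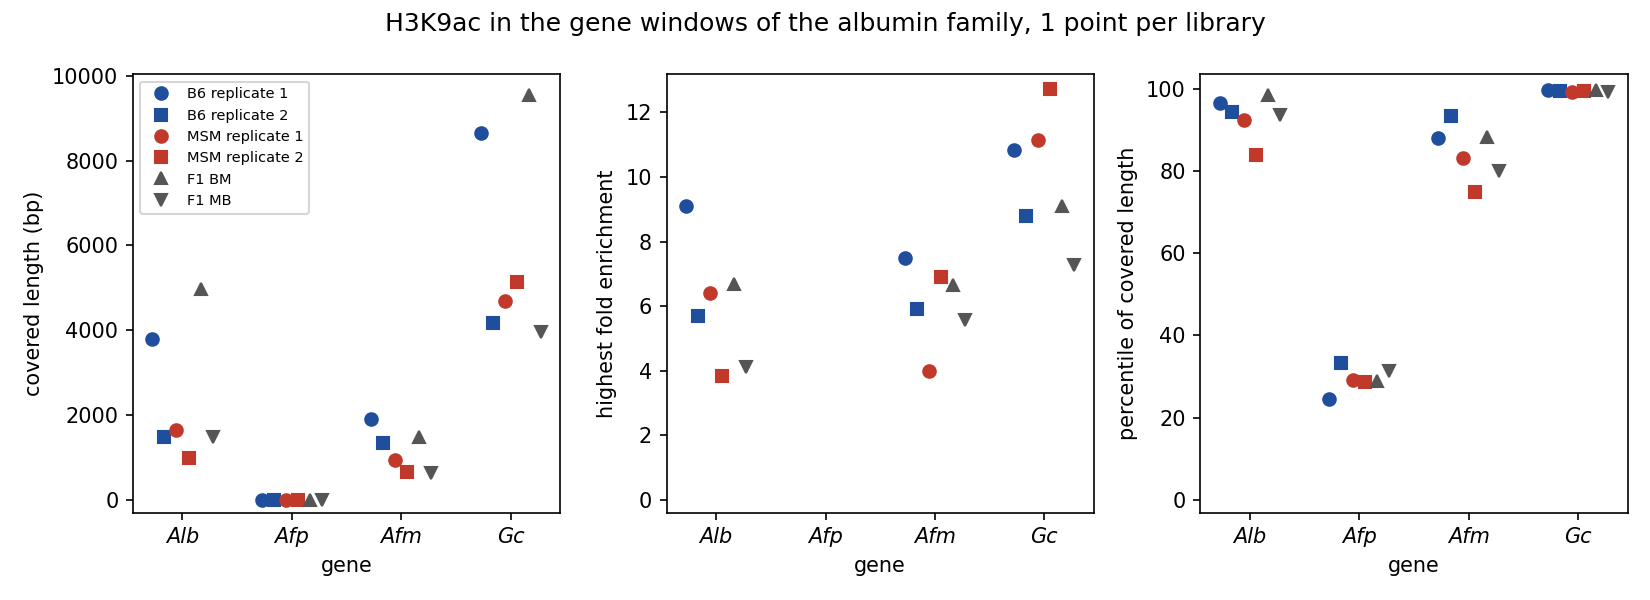
Covered length in bp (left), highest fold enrichment of a peak (middle) and percentile of covered length among protein-coding genes (right) in the gene windows of Alb, Afp, Afm and Gc, with 1 point per library (blue B6, red MSM, grey F1). Gc is highest in every library for covered length, Afp is at 0 in all 6 and has no fold value, and its percentile only reflects the share of genes that are also at 0.

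The lists differed in length, and this bears on every strain comparison. They held 22968 and 11619 peaks in B6, 17310 and 17584 in MSM, 20173 in F1 BM and 13235 in F1 MB. They covered 6.28 to 16.0 Mb. The lists give no read counts, and the numbers of read pairs that the study states were not used here. The number of peaks at the members was 15 and 8 in B6, 11 and 11 in MSM, 18 in F1 BM and 10 in F1 MB. B6 replicate 1 and F1 BM, the longest lists, had most covered length at Alb, Afm and Gc. The part of list length in these values was not tested beyond the percentiles and equalised lists given below. With 2 libraries per strain the smallest two-sided exact permutation p is 0.333, so no single difference could pass 0.05. Differences over the gene windows in covered length and in highest fold were set against the pooled within-strain SD, as were some others. Reads of MSM were mapped to the B6 sequence, and a missing peak in MSM cannot be told apart from reads lost over sequence that differs.

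As a check of the tissue, 8 of 9 hepatocyte marker genes, among them Apoa1 and Ttr, had a peak within 1 kb of the start in every list, and the 9 starts together had 7900 to 10432 bp under peaks. Hnf4a had none there, although its whole gene window had 7082 to 12851 bp. Of 7 Kupffer cell markers 0 to 1 had a peak, with Clec4f and Adgre1 at 0 in all lists. Of 6 endothelial markers 0 to 5 had one, with a summed length of 0 to 3816 bp in B6, 544 to 1180 bp in MSM and 0 to 2772 bp in the F1 libraries. Stellate markers had 0 to 3 of 6, cholangiocyte markers 0 to 1 of 5 and red cell precursor markers 1 of 5. Endothelial markers were highest in the longest lists, B6 replicate 1 and F1 BM, and the marker genes' part in the results was not tested.

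Alb, the gene of the most abundant plasma protein, had peaks in its first kb in both B6 and both F1 libraries and in neither MSM library. They overlapped exons 1 to 4 in B6 replicate 1, exons 1 to 3 in F1 BM and exon 2 alone in B6 replicate 2 and F1 MB. The covered length in its window was 3792 and 1481 bp in B6, 1654 and 987 bp in MSM, 4961 bp in F1 BM and 1482 bp in F1 MB. The strains overlapped. The mean was 2636.5 ± 1634 bp (SD, n = 2) in B6 and 1320.5 ± 472 bp (SD, n = 2) in MSM, and the difference of -1316 bp was close to the pooled within-strain SD of 1203 bp (two-sided exact permutation p = 0.667). With 11619 peaks in every list it was -1848 bp, with the same covered length in every list -2034 bp and in the gene body alone -1867 bp, and in these 3 cases both B6 libraries lay above both MSM libraries (exact permutation p = 0.333). Without B6 replicate 1 it was -160.5 bp. By percentile, which ranks the genes within each list, Alb stood at 96.6 and 94.4 in B6 and at 92.3 and 83.8 in MSM. Both B6 libraries thus lay above both MSM libraries (exact permutation p = 0.333, the smallest possible). The share of genes with this order by percentile was not computed. The MSM minus B6 difference in percentile was -7.45, and -18.9 in the gene body alone. It was -35.6 with 11619 peaks in every list and -36.8 with the same covered length in every list. In both of these settings MSM replicate 2 kept no peak at Alb, so it ranked with the genes without a peak. The difference was -3.19 without MSM replicate 2 and -11.7 without MSM replicate 1. The highest fold enrichment was 9.11 and 5.69 in B6, 6.40 and 3.83 in MSM, 6.67 in F1 BM and 4.11 in F1 MB. It did not separate the strains, with a difference of -2.28 against a pooled SD of 2.14 (exact permutation p = 0.667). In the gene body alone both B6 libraries lay above both MSM libraries (exact permutation p = 0.333, the smallest possible), an order found for 614 genes. The difference there was -3.39. Over the whole window it was -0.57 without B6 replicate 1, -0.99 without MSM replicate 2, -3.99 without B6 replicate 2 and -3.57 without MSM replicate 1.

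The position of the Alb peaks did separate them. In B6 the first peak past the start ran from 32 to 3289 bp in replicate 1 and from 124 to 1604 bp in replicate 2, with summits at 235 and 315 bp. In MSM it ran from 1261 to 1632 bp and from 1271 to 1542 bp. In F1 BM it ran from -46 to 2850 bp and in F1 MB from 306 to 1079 bp. The first kb of Alb, which holds exon 1 and exon 2, thus had 968 and 876 bp under peaks in B6, 0 and 0 bp in MSM, 1000 bp in F1 BM and 694 bp in F1 MB. The strain difference was -922 bp against a pooled SD of 46 bp (exact permutation p = 0.333, the smallest possible). Both MSM values were 0 bp, so this SD reflects the spread of the B6 pair alone. Among 9454 genes with a peak there in at least 1 parental list, 2.08% had one in both B6 lists and in neither MSM list. Both hybrids had peaks in this stretch, as B6 had.

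On the other side of the start the order was opposite. Within 5 kb upstream of Alb the covered length was 284 and 0 bp in B6, 671 and 715 bp in MSM, 1001 bp in F1 BM and 473 bp in F1 MB. MSM was higher by 551 bp against a pooled SD of 144 bp (exact permutation p = 0.333), and this order was found in 2.95% of 10668 genes. Downstream the values were 3258 and 1481 bp in B6, 983 and 272 bp in MSM, 3713 bp in F1 BM and 1009 bp in F1 MB. B6 was higher there, by a difference of -1742 bp against a pooled SD of 957 bp (exact permutation p = 0.333), an order found in 11.6% of genes. With every list limited to 11619 peaks the upstream difference was 335.5 bp and the strains overlapped. In the first kb the difference was again -922 bp, but both MSM values were 0 bp beforehand and could not fall. This setting therefore cannot show that difference to be stable. When the greater part of a peak had to lie in the first kb, that difference was -438 bp and the strains overlapped. The downstream difference was -853.5 bp without B6 replicate 1. Both orders together were found in 0.216% of genes, 23 of 10668. These 2 sides and the first kb were looked at after the values were seen, so their shares describe Alb and are no test of it. The upstream MSM peaks ended at -316 and -301 bp, just beyond the 250 bases printed for Alb, and left the promoter itself without a peak. Neither B6 library nor F1 MB had a peak in the promoter either, and only the F1 BM peak that began at -46 bp reached into it. The fold enrichment of the upstream MSM peaks was 6.40 and 3.14, against 3.58 in B6 replicate 1, 3.53 in F1 BM and 2.89 in F1 MB. All libraries but B6 replicate 2 had a peak on each side of the Alb start within 5 kb.

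**Figure D2:**
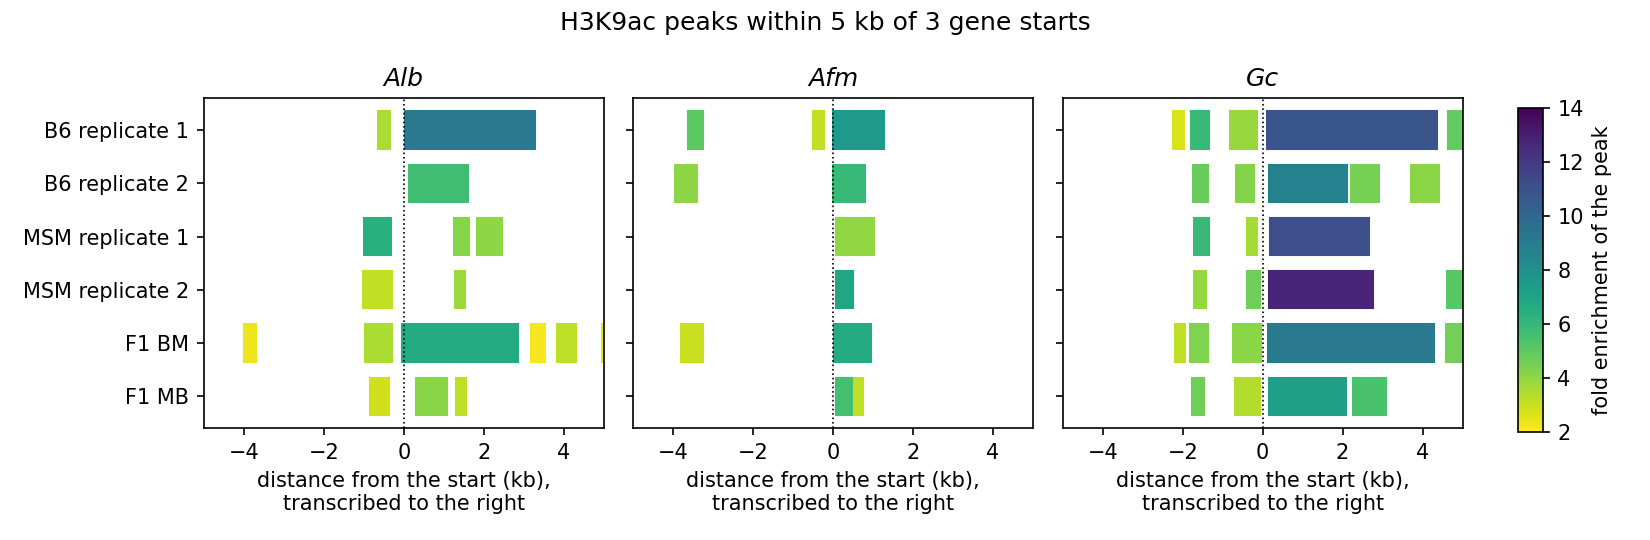
Peaks of each library within 5 kb of the starts of Alb, Afm and Gc, with the distance in kb on the horizontal axis, 1 row per library and the colour giving the fold enrichment. In MSM the first 1 kb of Alb has no peak and the peaks stand upstream and beyond 1261 bp, whereas Gc has a wide peak just past its start in all 6 libraries.

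**Figure D3:**
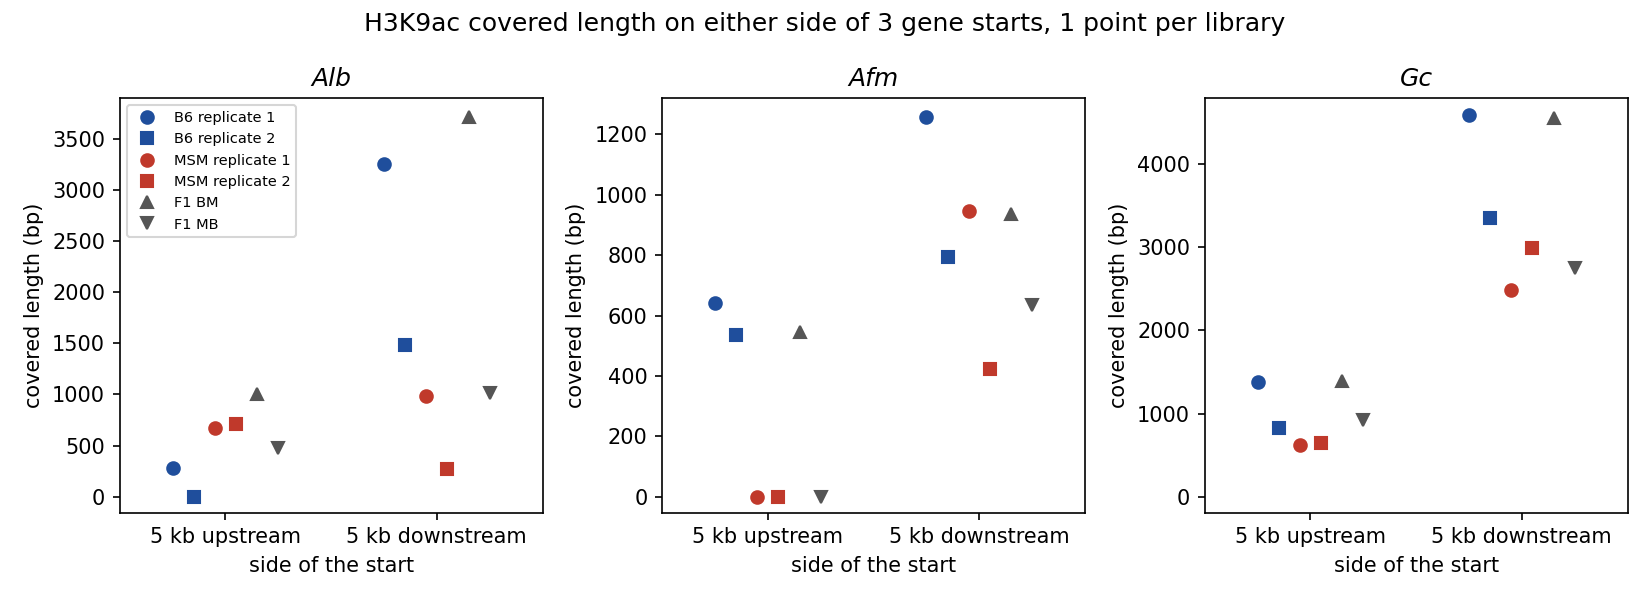
Covered length in bp within 5 kb upstream and 5 kb downstream of the starts of Alb, Afm and Gc, 1 point per library (blue B6, red MSM, grey F1), each panel on its own scale. For Alb MSM is above B6 upstream and below it downstream, and for Afm the upstream values are 537 to 642 bp in both B6 libraries and in F1 BM and 0 in the others.

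Acetylation covered 22.3% and 9.43% of the Alb gene in B6, 6.26% and 1.73% in MSM, 25.2% in F1 BM and 6.42% in F1 MB. It stayed at the 5′ end. The farthest peak ended 5883 bp into the gene, in B6 replicate 1, and overlapped intron 6. Exons made up 0 to 16.7% of the covered length in the gene, where 13.0% of the gene is exonic. The widest Alb peak, 3258 bp in B6 replicate 1, was wider than most, since 0.797% of the peaks of that list exceeded it. In MSM the widest was 671 and 715 bp, exceeded by 24.2% and 21.1% of peaks.

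A further stretch lay upstream of the Alb window, in the neighbourhood of the known upstream enhancer of the gene. A region from -13081 to -10805 bp of the start had peaks in all 6 lists. Its fold enrichment was 10.9 and 4.34 in B6, 7.08 and 7.08 in MSM, 3.82 in F1 BM and 5.92 in F1 MB. In 4 of the 6 libraries, all but B6 replicate 2 and F1 BM, this exceeded the highest fold in the Alb window. Next to it a second region from -10649 to -9995 bp had peaks in both B6 libraries (fold enrichment 4.56 and 3.89), in F1 BM (4.12) and F1 MB (3.80), but in neither MSM library. The F1 MB peak, from -10246 to -9995 bp, overlapped neither B6 peak and joined the region through that of F1 BM. Over the genome 3.06% of 27334 merged regions had this strain pattern. The pattern was lost when every list held the same 11619 peaks in number, where B6 replicate 2 but not B6 replicate 1 kept its peak.

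Afp, the fetal counterpart of albumin, had no peak in any of the 6 lists. The interval between Alb and Afp (14.1 kb) had none either. The stretch without a peak around the Afp start was 48.5 and 52.5 kb long in B6, 55.6 and 56.6 kb in MSM, 49.0 kb in F1 BM and 56.5 kb in F1 MB. It began inside Alb, 24.0 to 28.3 kb before the Afp start, and ended 24.2 to 28.3 kb past it, upstream of Afm or at its start. A value of 0 means that no peak was called, and a signal too weak to be called was not detectable in these lists. The other genes listed as active in fetal liver gave the same values. H19, Igf2, Dlk1, Gpc3, Igf2bp1, Igf2bp3, Lin28b, Cd24a and Spink1, 9 of 9, had no peak within 5 kb of the start in any list, against 50.8% of all protein-coding genes. H19 is a non-coding RNA gene and is not among the genes of that share. The genes of both Afp repressors were acetylated in every library. Zhx2 had 984 to 2439 bp and Zbtb20 942 to 1461 bp within 5 kb of the start.

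**Figure D4:**
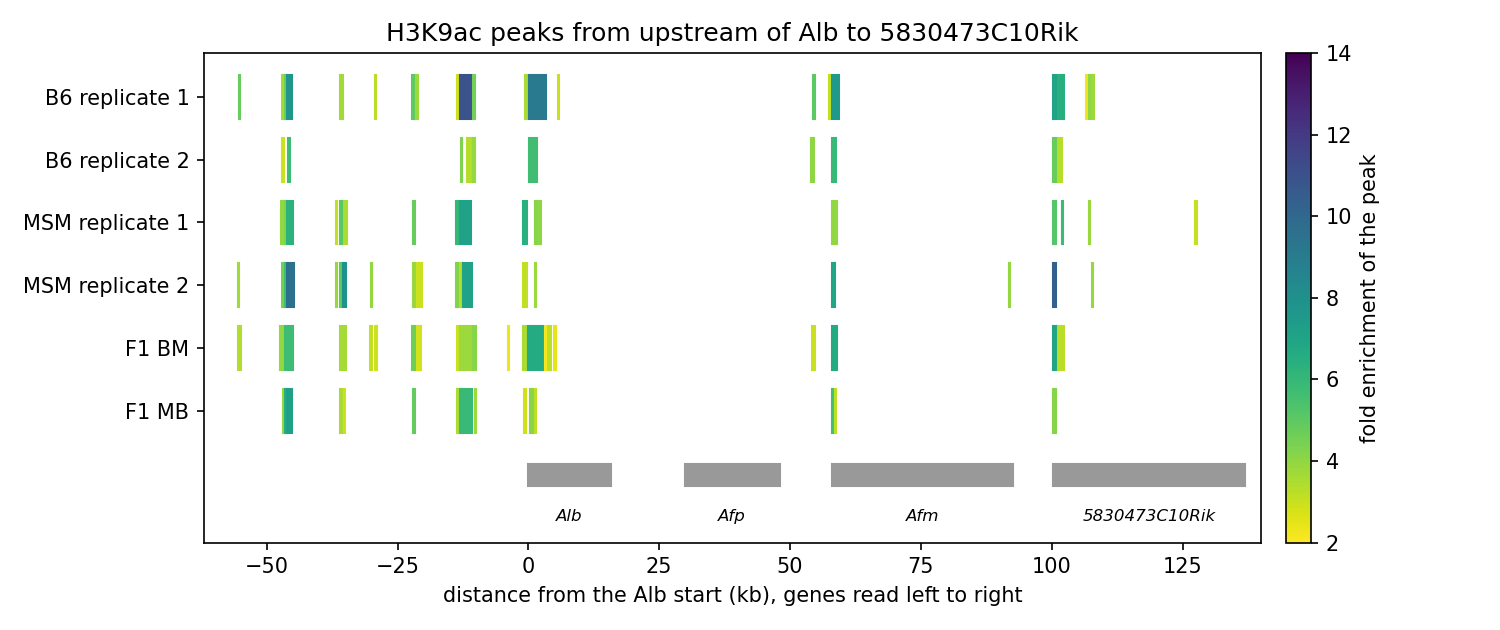
Peaks of each library from upstream of Alb to the end of 5830473C10Rik, with the distance from the Alb start in kb on the horizontal axis, 1 row per library, grey bars for the genes and the colour giving the fold enrichment. All 6 libraries have peaks within 5 kb of the starts of Alb, Afm and 5830473C10Rik, and none has a peak from the 3′ part of Alb through Afp.

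Afm, the afamin gene, carried a narrow domain just past its start. Its covered length was 1900 and 1332 bp in B6, 945 and 646 bp in MSM, 1481 bp in F1 BM and 636 bp in F1 MB. Both B6 libraries lay above both MSM libraries, and F1 MB lay below all parental libraries. Of the 646 bp in MSM replicate 2, however, 224 bp were a peak in intron 14. Within 5 kb of the start MSM replicate 2 had 422 bp, below the 636 bp of F1 MB. The mean was 1616 ± 402 bp (SD, n = 2) in B6 and 795.5 ± 211 bp (SD, n = 2) in MSM. The difference of -820.5 bp was larger than the pooled SD of 321 bp (exact permutation p = 0.333, the smallest possible). The strains overlapped in lists of the same covered length (-455 bp), in the gene body alone (-231 bp), with −log10 q of at least 5 (-529.5 bp) and with 2 kb either side of the start (-366 bp). Without B6 replicate 1 the difference was -536.5 bp. By percentile Afm stood at 88.1 and 93.3 in B6 and at 83.0 and 74.9 in MSM, a difference of -11.8 with both B6 libraries higher. The share of genes with this order was not computed. The strains overlapped in percentile with the same covered length in every list (-10.4) and in the gene body alone (-3.74). The difference was -5.83 with 2 kb either side of the start and -7.68 without MSM replicate 2. The highest fold enrichment was 7.50 and 5.90 in B6, 3.99 and 6.90 in MSM, 6.64 in F1 BM and 5.57 in F1 MB. It overlapped between the strains (difference -1.26, pooled SD 1.66, exact permutation p = 0.667). More covered length in B6 was found for 11.6% of 11446 genes with a peak in a parental list, and more in MSM for 4.97%. Of the 3 members with such a peak 1, Afm, had more in B6 in the gene window and 0 had more in MSM. Within 5 kb of the start 2 members, Afm and Gc, had more in B6, against 12.1% of 10668 genes. With the same covered length in every list, 1301 genes had more in B6 and 1461 in MSM, against 1323 and 569 as deposited.

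The peak at the Afm start had much the same place in all 6 libraries, and -589.5 of the -820.5 bp between the strains lay upstream of the start. The start peak began between -1 and 69 bp, and its summit lay between 172 and 233 bp, inside intron 1. It covered 1258 and 795 bp downstream in B6, 945 and 422 bp in MSM, 935 bp in F1 BM and 636 bp with a second small peak in F1 MB, and the strains overlapped (difference -343 bp, pooled SD 349 bp, exact permutation p = 0.667). Upstream of Afm, in the interval after Afp, the covered length was 642 and 537 bp in B6, 0 and 0 bp in MSM, 546 bp in F1 BM and 0 bp in F1 MB. The upstream difference was -186.5 bp with −log10 q of at least 5 and -268.5 bp with the same covered length in every list. Within 2 kb of the start it was -135 bp. In all of these settings the strains overlapped. The region, -3948 to -3267 bp from the start (chr5:90514984-90515665), had a fold enrichment of 5.01 and 4.03 in B6 and 3.01 in F1 BM. In B6 replicate 1 it held 372 of the 642 bp, and a peak from -509 to -241 bp held 269 bp. In lists limited to the same covered length, the peak of B6 replicate 2 was the 1 that was left. It was the region of the members' windows and intervals with peaks in both B6 lists and neither MSM list, 1 of 20 regions, against 3.06% over the genome. One other region, inside Gc, had the opposite pattern, against 3.08%, and 5 of the 20 regions were in all 6 lists, against 25.3%.

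The parts of the 2 regions near Alb and Afm that both B6 libraries and F1 BM shared are given because they mark the places where MSM had no peak. They are B6 reference sequence of GRCm38.p6 on the plus strand, chr5:90450378-90450607 (230 bp) and chr5:90515294-90515520 (227 bp), and no motif was searched in them.
Alb upstream region: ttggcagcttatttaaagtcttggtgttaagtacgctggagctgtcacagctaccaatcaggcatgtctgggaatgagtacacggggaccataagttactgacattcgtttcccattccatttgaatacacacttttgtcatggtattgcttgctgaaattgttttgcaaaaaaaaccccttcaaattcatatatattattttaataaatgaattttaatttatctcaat
Afm upstream region: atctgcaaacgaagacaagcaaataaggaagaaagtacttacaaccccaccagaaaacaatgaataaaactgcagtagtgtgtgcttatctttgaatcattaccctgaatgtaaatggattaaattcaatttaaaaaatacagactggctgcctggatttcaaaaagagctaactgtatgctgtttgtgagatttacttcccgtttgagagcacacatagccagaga

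Gc, the gene of the vitamin D-binding protein, had the widest domain of the family. The covered length was 8639 and 4179 bp in B6, 4689 and 5140 bp in MSM, 9555 bp in F1 BM and 3963 bp in F1 MB. The MSM libraries lay between the B6 libraries. The mean was 6409 ± 3154 bp (SD, n = 2) in B6 and 4914.5 ± 319 bp (SD, n = 2) in MSM, and the difference of -1494.5 bp was below the pooled SD of 2241 bp (exact permutation p = 1). Without B6 replicate 1 the difference turned to 735.5 bp, and with 11619 peaks in every list it was -700 bp. In lists of the same covered length it was -1480.5 bp and the strains separated (exact permutation p = 0.333). They separated also within 5 kb of the start, with 5976 and 4179 bp in B6 and 3104 and 3646 bp in MSM (exact permutation p = 0.333). More in B6 within 5 kb was found for 12.1% of 10668 genes. On the downstream side of the start both B6 libraries lay above both MSM libraries, an order found in 11.6% of genes. The difference there was -1239 bp, and it was -619.5 bp without B6 replicate 1. The strains overlapped within 2 kb of the start, where it was -36.5 bp, and within 10 kb, where it was -924 bp. In percentiles Gc stood at 99.7 and 99.5 in B6 and at 99.1 and 99.4 in MSM. By percentile Alb, Afm and Gc thus all had both B6 libraries higher, and without a share over all genes this cannot be weighed.

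The height of the Gc peak went the other way. Its highest fold enrichment was 10.8 and 8.78 in B6, 11.1 and 12.7 in MSM, 9.11 in F1 BM and 7.27 in F1 MB. Both MSM libraries lay above both B6 libraries, by 2.13 against a pooled SD of 1.30 (exact permutation p = 0.333, the smallest possible). The difference was 1.10 without B6 replicate 2 and 1.34 without MSM replicate 2. A higher fold in MSM was found for 8.59% of 6706 genes with a peak in all 4 parental lists, and in B6 for 10.8%. Of the 3 members with such peaks 1, Gc, was higher in MSM and 0 in B6. F1 MB lay below all parental libraries.

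The first Gc peak began between 111 and 191 bp in every library and differed in length. The first peak past the start ran from 111 to 4353 bp and from 155 to 2113 bp in B6, from 191 to 2670 bp and from 148 to 2755 bp in MSM, from 125 to 4278 bp in F1 BM and from 157 to 2086 bp in F1 MB. This first peak began inside exon 1 and lay mainly in intron 1. In B6 replicate 2 it was followed by peaks from 2218 to 2919 bp and from 3708 to 4404 bp. In F1 MB it was followed by a peak from 2270 to 3091 bp. The first kb had 889 and 845 bp under peaks in B6, 809 and 852 bp in MSM, 875 bp in F1 BM and 843 bp in F1 MB, so the strains overlapped where Alb differed. The 4243-bp peak of B6 replicate 1 was exceeded in width by 0.226% of that list, and the 4154-bp peak of F1 BM by 0.188%. The summit lay at 369 and 371 bp in B6 and at 420 bp in F1 BM, but at 1893 and 1932 bp in MSM and at 1881 bp in F1 MB. These 2 summit positions did not mix between the parental strains, and the hybrids took one each. This split was picked out after the positions were seen, and no share of genes with such a split is given here.

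Further peaks followed inside intron 1 of Gc, as far as 10317 and 4404 bp in B6, 10103 and 9589 bp in MSM, 10426 bp in F1 BM and 9535 bp in F1 MB. Of these, a region from 9225 to 9594 bp had peaks in both MSM libraries (fold enrichment 3.43 and 4.76), in F1 BM (4.74) and F1 MB (4.39), but in neither B6 library. With 11619 peaks in every list, 1 of the 2 MSM peaks was left. Beside the region B6 replicate 1, the longest list, had a peak nearby that began at 9878 bp. Exons made up 1.16 to 2.67% of the covered gene, where 4.46% of Gc is exonic. Upstream of Gc 2 regions, -807 to -32 bp and -1811 to -1334 bp, had peaks in all 6 lists, and the covered length within 5 kb was 1378 and 821 bp in B6, 624 and 648 bp in MSM, 1395 bp in F1 BM and 925 bp in F1 MB. Unlike at Alb, B6 was the higher strain upstream of Gc, but the difference of -463.5 bp went to 0 bp with 11619 peaks in every list.

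The regulators of the family were acetylated in nearly all cases. Of 10 regulator genes 9 had a peak within 5 kb of the start in all 6 lists, against 26.1% of all protein-coding genes. Their median covered length, as a mean over 6 libraries, was 1786 bp, against 0 bp over all genes. Cebpa, which encodes the liver activator C/EBP alpha, was highest at 5464.5 bp. Hnf4a was lowest at 0 bp at the start used here. Of the 10 genes 1, Trp53, had more in both B6 libraries (2426 and 1213 bp) than in both MSM libraries (538 and 1212 bp), and 0 had more in MSM. Over 10668 genes with such a peak in a parental list these orders were found for 12.1% and 4.40%. The other regulators were Cebpb (mean 4296 bp), Foxa1 (3124 bp), Foxa2 (2724.5 bp), Foxa3 (1813 bp), Nr5a2 (1759 bp), Zhx2 (1549.5 bp), Zbtb20 (1135 bp) and Trp53 (1327 bp).

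Among other plasma protein genes of the liver, 28 of 30 had a peak within 5 kb of the start in all 6 lists, against 26.1% of all protein-coding genes. The exceptions were Apoh, with 5 lists, and A1bg, with none. The median was 2617.5 bp, and Ahsg, which encodes fetuin-A, was highest at 5431 bp. Of these 30 genes 4 stood above Gc, 17 above Alb, 25 above Afm and 29 above Afp. Alb, which makes the most abundant plasma protein, was therefore near the middle of this list by covered length. More covered length in both B6 libraries was found for 4 of the 30 (Fga, Ambp, Plg and Vtn) and more in both MSM libraries for 1 (Serpinc1), near the 12.1% and 4.40% over all genes with such a peak.

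**Figure D5:**
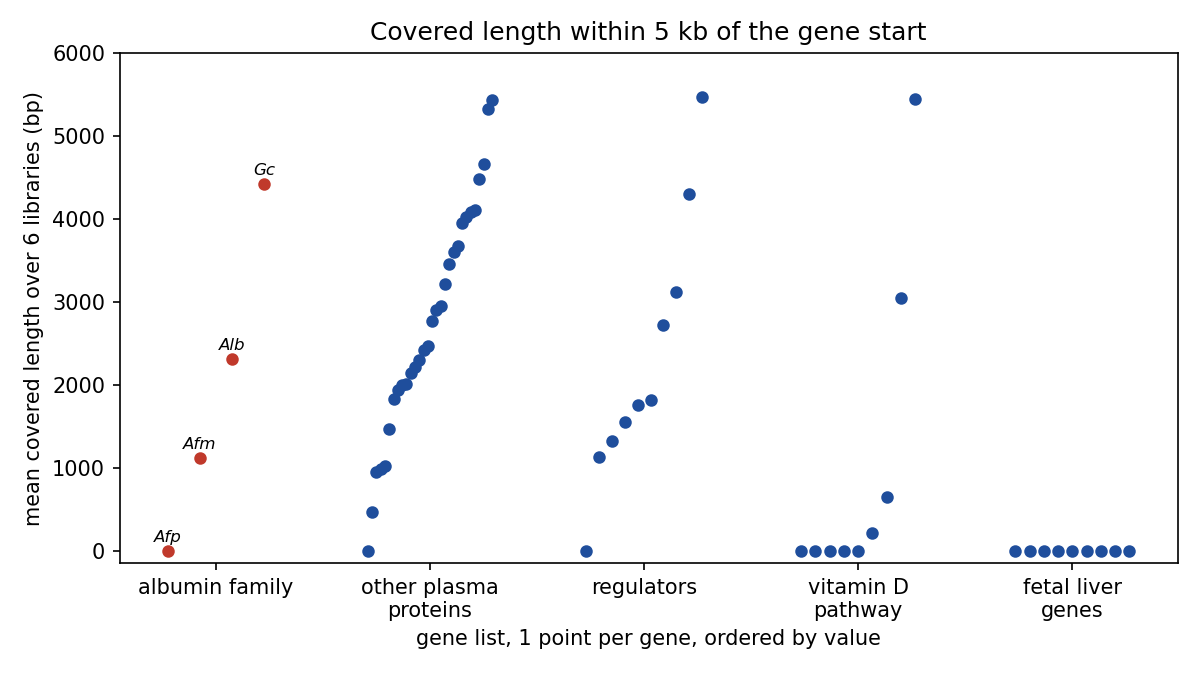
Mean covered length over 6 libraries within 5 kb of the start in bp, 1 point per gene, for the albumin family (red) and 4 other gene lists (blue), ordered by value within each list. Gc lies near the top of the range of the plasma protein genes, Alb near their middle, and Afp at 0 with all 9 fetal liver genes.

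In the vitamin D pathway, to which Gc belongs as the carrier, 3 of 9 genes had a peak within 5 kb of the start in all 6 lists and 5 had none in any list. These counts were near the 26.1% and 50.8% of all protein-coding genes. The 3 were Cyp27a1, a vitamin D 25-hydroxylase that also acts in bile acid synthesis, Dhcr7, which takes the vitamin D precursor towards cholesterol, and Rxra, the partner of the vitamin D receptor (mean 5450 bp, the highest). Vdr, Cyp27b1, Cyp24a1, Lrp2 and Cubn had none in any list. Cyp2r1, the main 25-hydroxylase, had 569 and 468 bp in B6, 0 and 0 bp in MSM, 245 bp in F1 BM and 0 bp in F1 MB. It had peaks in the same 3 lists as the upstream region of Afm, a match picked out after the values were seen. More in both B6 libraries was found for 1 of the 9 genes, Cyp2r1, and more in MSM for 0, against 12.1% and 4.40% of 10668 genes.

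The neighbours were read in the same way. Npffr2, near Gc, had no peak. Ankrd17, upstream of Alb, had a mean of 1476.5 bp and Rassf6 of 817 bp. 5830473C10Rik had 1969 and 1414 bp in B6, 948 and 718 bp in MSM, 1671 bp in F1 BM and 639 bp in F1 MB, with both B6 libraries above both MSM libraries as at Afm. It was also the gene whose values were most like those of Afm out of all protein-coding genes, with a mean absolute log2 difference of 0.16 over 6 libraries after 100 bp were added. Ugt3a2 (0.19) and Lbp (0.19) followed. For Alb the nearest genes were Trim25 (0.25), Gldc (0.25) and Car14 (0.29), and for Gc they were Clpx (0.12), Acaa2 (0.15) and Gm44805 (0.16). Afp shared its 0 in every library with 11138 other genes.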

How the data were processed

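H3K9ac peak lists of 6 livers were used, 1 per library and not pooled. Per the labels the authors sequenced paired reads; the study's methods give Trim Galore and Bowtie 2 onto mm10, and the submitters' processing notes list HISAT2, SAMtools and MACS2. The calling threshold and the use of the input as control are not given in the sources used here. The deposited fold enrichment is a ratio at the summit over background, and the deposited −log10 p-value and −log10 q-value and a score came from the authors' peak caller. The lowest −log10 q was 1.30 to 1.35.

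The covered length was the bp of a window under peaks (overlap of at least 1 bp), computed for 21911 genes with Python 3.11.15 and numpy 2.4.6. Figures were drawn with matplotlib 3.10.9. Gene lists were compared within 5 kb either side of the start, a window of the same 10 kb in every gene. The test of a strain difference was an exact permutation of the 4 parental libraries, two-sided, with 6 assignments. The functions were tested on simulated data, in which 200 of 200 planted differences among 4000 genes were recovered. The planted differences were far larger than the simulated spread, so this checks the code only. It does not show that differences of the size reported here can be found, nor how often a gene without one is called. Alternatives were equal lists, a −log10 q minimum of 5, windows of 2 and 10 kb, left-out libraries and a replicate block.

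Named genes were the 4 members, their neighbours, all regulators counted, the highest and lowest of each other list and the 3 genes most like each member; further genes were named where a count was 5 or fewer or as examples chosen after their values were seen. Beside these, 2 regulators of the list are not reported here and not counted. The members and lists were chosen with earlier results of these data known.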

Additional observations from a re-analysis of the deposited data

How the results depend on the processing

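Of 319 recomputed values, 7 reversed and 32 counts or values left the range set for them. The other 280 include differences that kept their direction but not their size. They also include values that could not change. The covered lengths of Afp were 0 bp in every setting, and the replicate block returns the same difference by construction. The tally is therefore no measure of stability. The lists of some libraries are longer than others, read depth was not used, each parental strain has 2 libraries and each F1 cross 1, and the input was not used, so a missing peak can be a weak one.

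With every list limited to the 11619 peaks with the highest −log10 q, genes with more covered length numbered 1863 in B6 (1323 as deposited) and 857 in MSM (569), the difference at the Afp percentile (-0.0365, all values 0 bp) turned to 0.680, and the upstream difference at Gc went to 0 bp. The MSM minus B6 number of lists with a peak was then -1 in the region -10649 to -9995 bp of Alb (-2 as deposited), 1 in the region inside Gc (2), 0 in the far upstream region of Gc (2) and 0 in that of Alb (2). With the same covered length in every library it was -1 in the same region of Alb, -1 upstream of Afm (-2), 0 inside Gc, 0 far upstream of Gc and 0 far upstream of Alb. Genes with more covered length were then 1301 in B6 and 1461 in MSM, so that MSM had more, those with a higher fold in B6 300 and in MSM 228, and those with a peak in all 6 lists 3164. With −log10 q of at least 5 the MSM minus B6 number of lists was -1 upstream of Afm, 1 inside Gc and 1 far upstream of Alb, and the Afp percentile difference was 0.0399. When the greater part of a peak had to lie in the window, the first kb of Gc gave 0 bp. The cause was not tested.

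Leaving out each parental library in turn, the Afp percentile difference ranged from -4.40 to 4.33, with 0.130 without MSM replicate 2, the difference in the highest fold of Afm from -2.71 to 0.196, that in the covered length of Gc from -3724.5 to 735.5 bp and that in the first kb of Afm from -475.5 to 33.5 bp. Genes with more covered length numbered 1342 to 9629 in B6 and 576 to 6250 in MSM, and those with a higher fold 770 to 5602 in B6 and 944 to 4386 in MSM, where 1 library then stood for a strain.

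With the replicate block, which paired libraries by number, each difference was the same, -1316 bp for Alb, and the smallest possible p was 0.5. The numbers only name the libraries. The sides of the starts, the first kb, the Gc summits and the strain regions were chosen after seeing the data.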

Other observations

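Outside the windows of the members, 2 further regions separated the strains. A region from -35973 to -34903 bp of the Gc start (chr5:89492801-89493871) had peaks in both MSM libraries (fold enrichment 3.81 and 4.52), in F1 BM (3.74) and F1 MB (3.23), but in neither B6 library. The 248 bp that these 4 libraries shared, chr5:89493160-89493407 on the minus strand of GRCm38.p6, read as follows in the B6 reference.
Gc upstream region: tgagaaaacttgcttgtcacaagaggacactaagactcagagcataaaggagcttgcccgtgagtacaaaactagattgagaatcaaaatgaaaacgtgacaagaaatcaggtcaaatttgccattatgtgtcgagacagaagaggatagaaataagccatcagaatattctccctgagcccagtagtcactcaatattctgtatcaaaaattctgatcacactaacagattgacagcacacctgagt
A region from -36846 to -36509 bp of the Alb start had peaks in both MSM libraries (3.16 and 3.83) and in no other list. Over the genome 3.08% of 27334 regions had peaks in both MSM lists and in neither B6 list. With every list limited to 11619 peaks or to the same covered length, neither region had a peak in an MSM list. These regions were chosen after the lists were seen, as were the searched distances.

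Other regions upstream of Alb had peaks in all 6 lists. One from -46501 to -44784 bp had a fold enrichment of 7.74 and 5.79 in B6, 6.30 and 9.62 in MSM, 5.72 in F1 BM and 7.14 in F1 MB. In B6 replicate 2, MSM replicate 2 and F1 MB this was above every peak in the Alb window, and in the other 3 libraries it was below the highest of them.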
